A study of Mus musculus with 6 samples.

Results

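Basement membrane, Fraser complex, fibronectin, nephronectin and integrin genes were examined in lines of mpkCCD cells, which derive from mouse cortical collecting duct, the final tubule segment of the renal cortex. The 35 genes were chosen by name for their known roles, with earlier results of these data known. The brightest probe set on average stood for each, out of 18193 genes named on the arrays. Tests were made on 28 of the 35, those whose signal averaged more than 85.46, the middle value of all probe sets, and 7 did not pass this filter. The series holds 6 Affymetrix arrays of total RNA, 1 per line. Clone 2 is labelled as not expressing aquaporin 2 (AQP2, gene Aqp2), the vasopressin-regulated water channel of principal cells. Clones 3, 9, 10 and 11 and the original cells are labelled as expressing it. All 6 lines had been kept with dDAVP, a vasopressin analog, at 0.1 nM for 5 days, so no line without the hormone was compared. Each clone is a single line with a single array, so line, culture and array cannot be told apart, and the p-values measure only the spread between these arrays.

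Epithelial tubules rest on a basement membrane, a sheet built from networks of laminin and type IV collagen that are linked by nidogens and heparan sulfate proteoglycans. Cells bind it through integrins, receptors made of an alpha and a beta subunit. In the developing kidney, nephronectin made by the ureteric bud is anchored by proteins of the Fraser complex, and it is recognised by an integrin on the neighbouring mesenchyme. The collecting duct grows from that bud.

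Simple epithelial genes gave strong signal in every line. The keratins Krt8, Krt18 and Krt19, Cdh1 and Epcam summed to a signal of 78200 in clone 2 and to 85800 to 96300 in the expressing lines. In clone 2 Krt19 was above all expressing lines (11913.4 against 8285.7 to 9559), and Krt8, Krt18, Cdh1 and Epcam were below all of them. Of 11 principal cell markers, 9 passed the filter, while the water channel Aqp4 and the potassium channel Kcnj1 stayed at 53.4 or below in every line. The 11 summed to 8250 in clone 2 and to 16200 to 22700 in the expressing lines, Aqp2 included. The markers did not all go the same way. In clone 2 Aqp3 was above all expressing lines (191.9 against 96.4 to 150). Avpr2 (1741.9) and Scnn1b (193.6) lay within their range. Aqp2, Scnn1a, Scnn1g, Fxyd4, Gata3 and Hsd11b2 lay below all of them. None of 9 fibroblast markers and none of 6 endothelial markers passed the filter. The fibroblast markers summed to 253 in clone 2 against 192 to 355, and the endothelial ones to 248 against 148 to 224. Of 4 podocyte markers on the arrays, Podxl and Synpo passed, Nphs1 and Wt1 did not, and the sum was 1700 in clone 2 against 1610 to 2310. Of 6 leukocyte markers only Cd68 passed, with 619.3 in clone 2 against 121.6 to 323.1, and the other 5 stayed at or below 68. The sum of the 6 was 714 against 233 to 516, and its part in the results was not tested. Median signals lay between 79.6 (clone 2) and 88.6 (clone 10).

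In clone 2, 5 of the 28 tested genes were lower than in the expressing lines and none was higher. These were the collagen chains Col4a3 and Col4a4, Fn1, Npnt and Frem2 (limma, adjusted p under 0.05 over all 22518 probe sets). Over all probe sets 2.49% were called, 1.67% lower and 0.817% higher. At an unadjusted p under 0.05, 6 of the 28 were lower and 1 was higher, near the 20% of all probe sets at that p. The median log2 difference of the 28 was -0.22, and that of all tested probe sets was -0.03. The signal of clone 2 lay below all 5 expressing lines for 11 genes and above all of them for 2, where 29.3% and 24.3% of all probe sets did so. The shares over all probe sets count every tested probe set, whereas each member stands by its brightest probe set alone. The members were also chosen with earlier results of these data known, so a contrast with these shares is not independent support. Col4a3 had a signal of 10 in clone 2, so it passed the filter through the expressing lines alone. Col4a3 and Col4a4 are partner chains of a shared locus, so they are not independent. In bulk RNA, fewer cells with a transcript and less transcript per cell cannot be told apart.

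**Figure D1:**
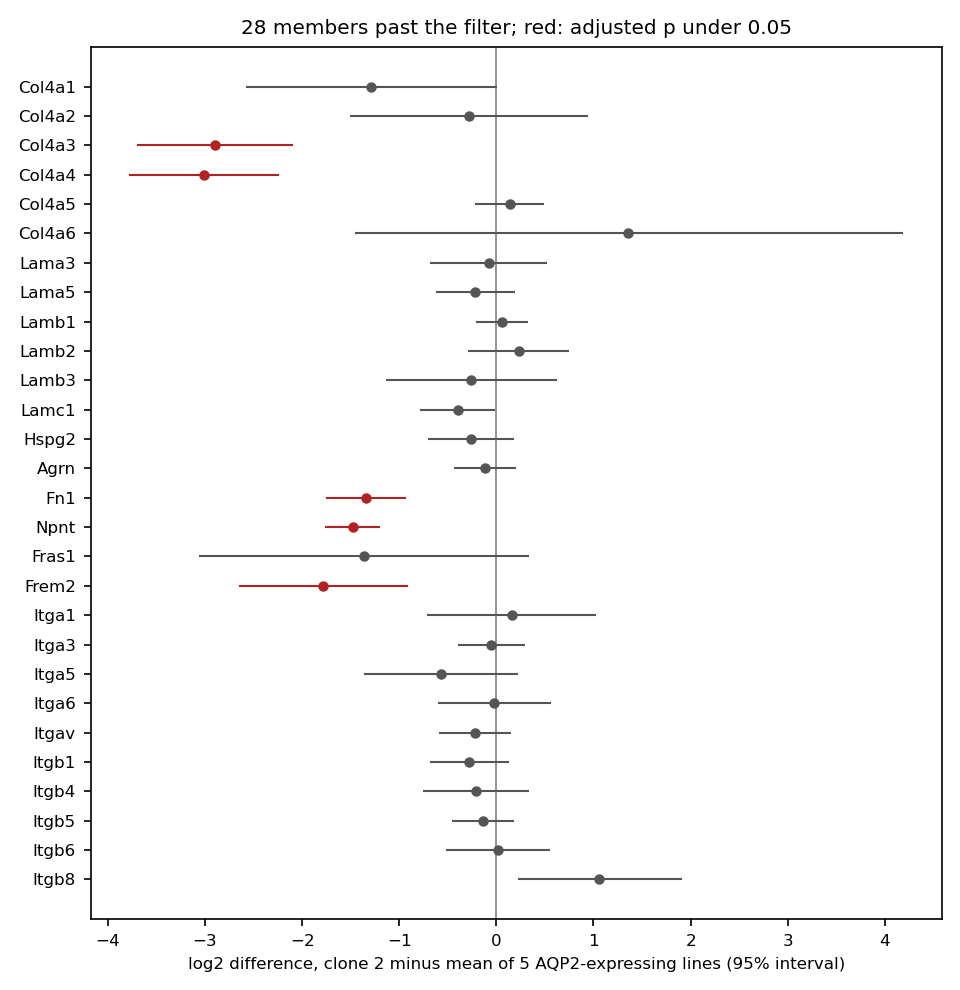
Log2 difference of clone 2 from the mean of the 5 AQP2-expressing lines for the 28 tested genes, with the 95% interval of the limma fit as horizontal bars. Col4a3, Col4a4, Fn1, Npnt and Frem2 (red) passed the test, and all 5 lie left of 0. The interval of Col4a6 is the widest of the 28, from -1.46 to 4.19.

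The type IV collagen genes lie in head-to-head pairs, whose starts face away from each other. The windows at these starts are shown because 1 pair held the largest differences of clone 2 and another held the widest spread between lines. They come from RefSeq, build GRCm38.p6, and run 5′ to 3′ on the strand of the named gene, from 250 bases before to 50 bases after the start used by the promoter table, which can differ from the outermost start of the gene. Capitals mark 3 motifs on either strand, none of which overlapped another. The GC box was searched as GGGCGG. The CCAAT box was searched by the letters of its name. The TATA box was searched as TATAAA. On chromosome 8, the start of Col4a2 (11312805) lies inside the Col4a1 window, and the annotated genes overlap by 84 bases. On chromosome 1, the start of Col4a3 (82586921) lies inside the Col4a4 window, with an overlap of 113 bases. On chromosome X, the Col4a5 start (141475370) lies 1275 bases from that of Col4a6, and each has a window of its own.
Col4a1, chr8:11312777-11313076, minus strand: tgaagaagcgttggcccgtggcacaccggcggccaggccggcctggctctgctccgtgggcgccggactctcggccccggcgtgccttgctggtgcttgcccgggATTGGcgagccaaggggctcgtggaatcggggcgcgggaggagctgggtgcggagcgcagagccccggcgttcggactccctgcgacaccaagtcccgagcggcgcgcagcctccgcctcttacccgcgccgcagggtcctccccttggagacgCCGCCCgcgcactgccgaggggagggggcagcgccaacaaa
Col4a4, chr1:82586800-82587099, minus strand: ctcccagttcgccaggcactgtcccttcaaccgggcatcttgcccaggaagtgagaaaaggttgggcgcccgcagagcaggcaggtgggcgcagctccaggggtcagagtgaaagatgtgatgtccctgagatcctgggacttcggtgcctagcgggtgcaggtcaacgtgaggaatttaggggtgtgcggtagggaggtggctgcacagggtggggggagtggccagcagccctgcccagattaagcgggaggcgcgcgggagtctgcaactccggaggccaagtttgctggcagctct
Col4a6, chrX:141474027-141474326, minus strand: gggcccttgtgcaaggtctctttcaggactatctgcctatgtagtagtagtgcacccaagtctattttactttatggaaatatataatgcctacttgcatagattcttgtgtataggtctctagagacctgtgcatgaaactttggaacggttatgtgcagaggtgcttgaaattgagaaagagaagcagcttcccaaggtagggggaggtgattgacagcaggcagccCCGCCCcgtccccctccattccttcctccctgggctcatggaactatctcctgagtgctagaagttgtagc
Col4a5, chrX:141475169-141475468, plus strand: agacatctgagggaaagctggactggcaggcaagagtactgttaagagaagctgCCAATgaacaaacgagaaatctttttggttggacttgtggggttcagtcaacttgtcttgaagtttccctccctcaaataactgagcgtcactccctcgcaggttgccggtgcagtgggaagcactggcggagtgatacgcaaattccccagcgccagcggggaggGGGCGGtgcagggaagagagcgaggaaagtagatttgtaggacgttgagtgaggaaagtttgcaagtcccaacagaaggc

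The Col4a1 and Col4a5 windows each held 1 GC box and 1 CCAAT box, and the Col4a6 window held 1 GC box. The Col4a4 window held none of these motifs, and no window held a TATA box. Among all 32851 promoter windows of the same length, 35.7% held a GC box, 37.4% a CCAAT box and 13.6% a TATA box. The share of G and C was 74.0% in the Col4a1 window, 63.3% in that of Col4a4, 52.7% in that of Col4a5 and 48.3% in that of Col4a6.

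Col4a3 and Col4a4 encode chains of the collagen network that is best known from the glomerular filter, and both also occur in tubule basement membrane. Both were lower in clone 2. The Col4a3 signal was 10 in clone 2, against 151.1 in clone 3, 298.5 in clone 9, 196.2 in clone 10, 173.4 in clone 11 and 186.2 in the original cells. Its log2 difference was -2.90 (SE 0.355, limma adjusted p = 0.00807). Clone 2 lay below every expressing line. Its signal was also below the filter and below the offset of 18.85 added before taking logs, so the gene passed the filter through the expressing lines alone and the offset sets the size of the difference. It was -4.29 with no offset and -2.29 with the offset doubled.

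The Col4a4 signal was 165.2 in clone 2, against 982 in clone 3, 2228.7 in clone 9, 1522.4 in clone 10, 1315.5 in clone 11 and 1541.2 in the original cells. The expressing lines averaged 1520 ± 457 (SD, n = 5), 9.19 times the clone 2 signal, and the log2 difference was -3.01 (SE 0.340, limma adjusted p = 0.00648). On these probe sets clone 9 was the highest and clone 3 the lowest of the expressing lines for both genes, a spread of 1.98 times for Col4a3 and 2.27 times for Col4a4. The second probe set of Col4a3 gave 5.7 in clone 2 against 146.4 to 237.7, with clone 11 highest and the original cells lowest. The other probe sets of Col4a4 gave 260.1 against 992.3 to 1804.7, and 67.7 against 320.9 to 448.7, where clone 11 was the lowest expressing line. Clone 2 was lowest on all of these, but the order of the expressing lines depended on the probe set. The median difference of 571 genes on chromosome 1, where the pair lies, was -0.28 in clone 2.

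Col4a1 and Col4a2 encode the chains of the collagen network found in almost every basement membrane. Neither passed the test in clone 2, and clone 9 carried the highest level of both. The Col4a1 signal was 1147.2 in clone 2, against 1563.7 in clone 3, 6667 in clone 9, 2195.1 in clone 10, 2893.1 in clone 11 and 2714.1 in the original cells (log2 difference -1.29, 95% interval -2.58 to 0.01, limma adjusted p = 0.253). The Col4a2 signal was 1070.6 in clone 2, against 969.9 in clone 3, 3073 in clone 9, 890 in clone 10, 1354.9 in clone 11 and 1052.6 in the original cells (log2 difference -0.28, 95% interval -1.51 to 0.94, limma adjusted p = 0.812). Clone 2 was thus the lowest line for Col4a1 and lay within the range of the others for Col4a2. Without clone 9 the Col4a2 difference was 0.02. The other Col4a1 probe set had 345.1 in clone 2 and 1794.9 in clone 9, against 514.1 to 886.2 in the other expressing lines.

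Col4a5 and Col4a6, X-linked chains of the collagen IV family, parted from each other. The Col4a5 signal was 3554.3 in clone 2, against 3275.6, 3409.2, 3663.9, 3036.8 and 2848.9 in clones 3, 9, 10 and 11 and the original cells (log2 difference 0.14, 95% interval -0.22 to 0.49, limma adjusted p = 0.67). Clone 2 lay within a narrow range of the others for Col4a5, whereas Col4a6 was low in clones 9 and 11. Its signal was 374.4 in clone 2, against 424.5 in clone 3, 23.6 in clone 9, 368.6 in clone 10, 25.4 in clone 11 and 240.5 in the original cells. Clones 9 and 11 stood below every other line, at signals too low for a fold to be given. A second Col4a6 probe set repeated this, with 270.6 in clone 2 against 263.5, 3.7, 337.4, 13.6 and 178.4 in clones 3, 9, 10 and 11 and the original cells. The log2 difference of clone 2 from the expressing lines was 1.36 (95% interval -1.46 to 4.19, limma adjusted p = 0.578), and it was 1.67 with no offset and 1.18 with the offset doubled. X-linked genes as a whole had a median difference of 0.47 in clone 2 (297 genes).

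None of the 6 tested laminin chains passed the test in clone 2, and 1 had an unadjusted p under 0.05. Lamb1, the beta chain of common laminins, had 5310.4 in clone 2 against 5432.2, 4775.6, 5246.7, 5034.2 and 5011.3 in clones 3, 9, 10 and 11 and the original cells, and its log2 difference was 0.06 (95% interval -0.21 to 0.33, limma adjusted p = 0.824). Lama5, the alpha chain typical of mature epithelial basement membrane, had 2287.7 in clone 2 against 3067.9, 2415.4, 2998.9, 2352.6 and 2553.2 in the same order (log2 difference -0.22, 95% interval -0.62 to 0.19). Lamc1, the gamma chain that pairs with them, had 929.6 against 1128.5 to 1446.7. It was the only chain with an unadjusted p under 0.05 (log2 difference -0.40, 95% interval -0.79 to -0.01, limma adjusted p = 0.24). On these probe sets Lama5 and Lamc1 were lowest in clone 2, without passing the test. On the second Lama5 probe set clone 2 had 1477, within the expressing lines' 1273.2 to 2013.1.

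Lamb3, a chain of the laminin of stratified and glandular epithelia, varied more than the other laminins and was singled out after its values were seen. Its signal was 1638.2 in clone 2, against 1383.6 in clone 3, 3070.2 in clone 9, 1377.8 in clone 10, 2085.2 in clone 11 and 2433.4 in the original cells. Lama3, its usual alpha partner, ran between 456.4 and 791 in all lines, with clone 9 highest. Lamb2 had 533.6 in clone 2 against 354.6 to 516.5. Lama1, of early embryonic basement membranes, and Lama4, of vessels, did not pass the filter and reached at most 40.1 in any line.

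Among the linkers, only the proteoglycan genes gave a usable signal. Agrn, which encodes agrin, had 4418.3 in clone 2 against 4485.2, 4376.2, 5054.8, 5329.6 and 4861.6 in clones 3, 9, 10 and 11 and the original cells (log2 difference -0.12, 95% interval -0.44 to 0.20, limma adjusted p = 0.669). Hspg2, which encodes perlecan, had 730.3 in clone 2 against 758, 817, 993.4, 850.7 and 990.8 in the same order (log2 difference -0.26, 95% interval -0.70 to 0.18, limma adjusted p = 0.492). Nid1 and Nid2, the nidogens, did not pass the filter and stayed at or below 35.7. Clone 2 was lowest for Hspg2 and inside the range for Agrn. On the second Hspg2 probe set clone 2 was also lowest, with 534.1 against 647.1 to 871.4 (log2 difference -0.49).

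Fn1 and Npnt were lower in clone 2 on every probe set past the filter. Fn1 encodes fibronectin, a fibrillar matrix protein bound by integrins. Its signal was 3137.9 in clone 2, against 7781.4 in clone 3, 9013.6 in clone 9, 7322 in clone 10, 9454.3 in clone 11 and 6738.1 in the original cells. Its log2 difference was -1.34 (SE 0.181, limma adjusted p = 0.0106). The other Fn1 probe set had 279.9 against 698.3 to 802.3, and on neither probe set did clone 2 overlap the expressing lines.

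Npnt encodes nephronectin. Its signal was 3832.7 in clone 2, against 11410.5 in clone 3, 9723.4 in clone 9, 11479.4 in clone 10, 10207.3 in clone 11 and 10876.9 in the original cells. The highest expressing line was 1.18 times the lowest, and on the other probe sets 1.24 to 2.28 times. On this probe set the gene had the smallest adjusted p of the 28 (log2 difference -1.48, SE 0.125, limma adjusted p = 0.00347). The 4 other Npnt probe sets past the filter had 2903.9 against 5312.6 to 8573.5, 668.1 against 1762.2 to 2796.8, 190.1 against 506.5 to 625.6, and 82.6 against 160.6 to 366.2. Clone 2 was the lowest line on all 5. Of 8 further probe sets of called members in all, 8 had the same sign and 7 were called. They read the same RNA on the same arrays that gave the calls, so they are not independent evidence. On some of them the clone 2 signal was below the filter, with 5.7 for Col4a3, 67.7 for Col4a4 and 82.6 for Npnt. Those passed the filter through the expressing lines alone. The chromosome medians were -0.28 for chromosome 1, with Fn1, and -0.20 for chromosome 3, with Npnt and Frem2 (512 genes).

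The Fraser complex genes Fras1 and Frem2 encode large proteins that hold epithelium to matrix beneath the basement membrane. Frem2 passed the test narrowly. Its signal was 1037.9 in clone 2, against 5085.2 in clone 3, 2316.9 in clone 9, 5262.8 in clone 10, 3108.9 in clone 11 and 3206 in the original cells (log2 difference -1.78, SE 0.386, limma adjusted p = 0.0499). Clone 2 lay below every expressing line, but the call was lost without clone 3 (adjusted p = 0.0668), clone 10 (0.0598), clone 11 (0.0772) or the original cells (0.0969).

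Fras1 had 461.8 in clone 2, against 2396.4 in clone 3, 370.3 in clone 9, 1863.6 in clone 10, 1167 in clone 11 and 1346 in the original cells. Clone 9 was as low as clone 2, and Fras1 did not pass the test (log2 difference -1.36, 95% interval -3.06 to 0.34, limma adjusted p = 0.347). Without clone 9, the only expressing line below clone 2, the difference was -1.78. It was -1.12 without clone 3, -1.21 without clone 10, -1.37 without clone 11 and -1.32 without the original cells. Leaving out clone 9 removes the 1 line that overlaps clone 2, so no conclusion can be drawn from it. A second Fras1 probe set had 166.7 in clone 2 and 88 in clone 9, against 294.7 to 625.3 in the other expressing lines. Frem1, the related gene, was not above 3.9 in any line.

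**Figure D2:**
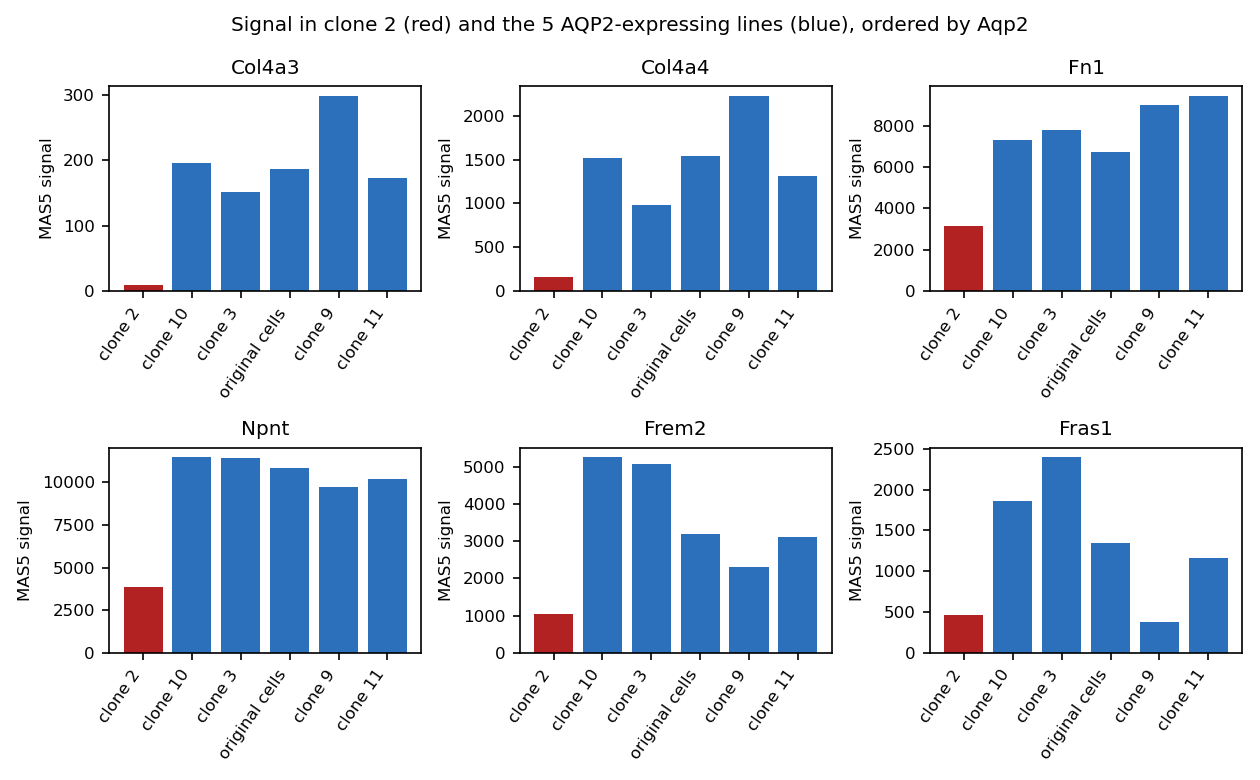
MAS5 signal (linear scale from 0) of Col4a3, Col4a4, Fn1, Npnt, Frem2 and Fras1 in clone 2 (red) and the 5 AQP2-expressing lines (blue), 1 array each, with lines ordered by their Aqp2 signal. Clone 2 is below all expressing lines except for Fras1, where clone 9 (370.3) lies below clone 2 (461.8).

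None of the 5 tested alpha subunits and none of the 5 beta subunits passed the test. At an unadjusted p under 0.05 the numbers were 0 and 1. Itgav, the alpha subunit of receptors for fibronectin and related ligands, had 5342.7 in clone 2 against 5890.3, 5178.6, 6696.1, 6633.4 and 6881 in clones 3, 9, 10 and 11 and the original cells. Itga3, the alpha subunit of a laminin receptor, had 3432.4 in clone 2 against 3781.3, 3009.3, 3567.3, 3748.3 and 3709.4 in the same order. Itga6, of another laminin receptor, had 1943.5 against 1525.5 to 2638.4. Clone 2 lay within the range of the expressing lines for all 3. Itga1, a collagen receptor subunit, had 221.9 against 125.5 to 298.7.

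Itga5, the subunit of the classical fibronectin receptor, was the only tested alpha subunit lowest in clone 2, with 68.8 against 86.1 to 143.6 (log2 difference -0.57, 95% interval -1.36 to 0.22, limma adjusted p = 0.397). Itga8, the partner of the nephronectin receptor on mesenchyme, and Itga2, of a collagen receptor, did not pass the filter and reached at most 46.5. On the probe sets used, all 5 tested alpha subunits were at their lowest in clone 9 among the expressing lines. For Itga3 this did not hold on the other probe sets, where the original cells were lowest, with 1233.3 against 1316.3 in clone 9 and 473.9 against 475.5. For Itga5 the order rested on 86.1 in clone 9 against 89.3 in clone 3, near the filter.

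Among the beta subunits, clone 2 was lowest for Itgb1 and highest for Itgb8. Itgb1, the partner of most alpha subunits named here, had 3887.3 in clone 2 against 4177.3, 5536.2, 4676.3, 5239.7 and 4102.6 in clones 3, 9, 10 and 11 and the original cells (log2 difference -0.28, 95% interval -0.68 to 0.13, limma adjusted p = 0.423). Itgb5, a partner of Itgav, had 4557.8 against 4548.3, 5231.8, 4857.2, 5655.1 and 4844.8 in the same order. Clone 2 lay within the range for Itgb5, Itgb4 and Itgb6 on these probe sets, and below it on the other Itgb6 probe set and on 2 of 3 others of Itgb5. The other Itgb1 probe sets past the filter also had clone 2 lowest, with larger differences. They gave 3253.2 against 3797 to 5880.9 (log2 difference -0.51), and 160.8 against 213.1 to 263.3 (-0.50). Itgb4, the hemidesmosomal subunit, had 971.5 against 880.8 to 1492.7, and Itgb6, which can activate TGF-beta, had 429.8 against 345.6 to 515.6. Itgb8, also a TGF-beta-activating subunit, had 388.2 in clone 2, against 154.3 in clone 3, 104 in clone 9, 211.8 in clone 10, 219.2 in clone 11 and 221.3 in the original cells. Clone 2 was thus above every expressing line, but the difference did not pass the test (log2 difference 1.06, 95% interval 0.22 to 1.91, limma adjusted p = 0.162).

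Among the 5 expressing lines, clone 9 was the most often at an extreme. It was the highest of the 5 for 9 of the 28 genes and the lowest for 13, where 26.3% and 25.1% of all 22518 probe sets had it there. The genes highest in clone 9 were Col4a1, Col4a2, Col4a3, Col4a4, Lama3, Lamb3, Itgb1, Itgb4 and Itgb6. Those lowest in it were Col4a6, Lamb1, Lamc1, Agrn, Fras1, Frem2, Npnt, Itgb8 and the 5 alpha subunits. The median spread of the 28 genes over the expressing lines was 0.59 on the log2 scale, and that of all tested probe sets was 0.50. Col4a6 (3.38), Fras1 (2.63), Col4a1 (2.08) and Col4a2 (1.77) had the widest spread, and Lamb1 (0.19) and Npnt (0.24) the narrowest. The Col4a6 value rests on low signals. These counts describe single arrays on the probe sets used.

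**Figure D3:**
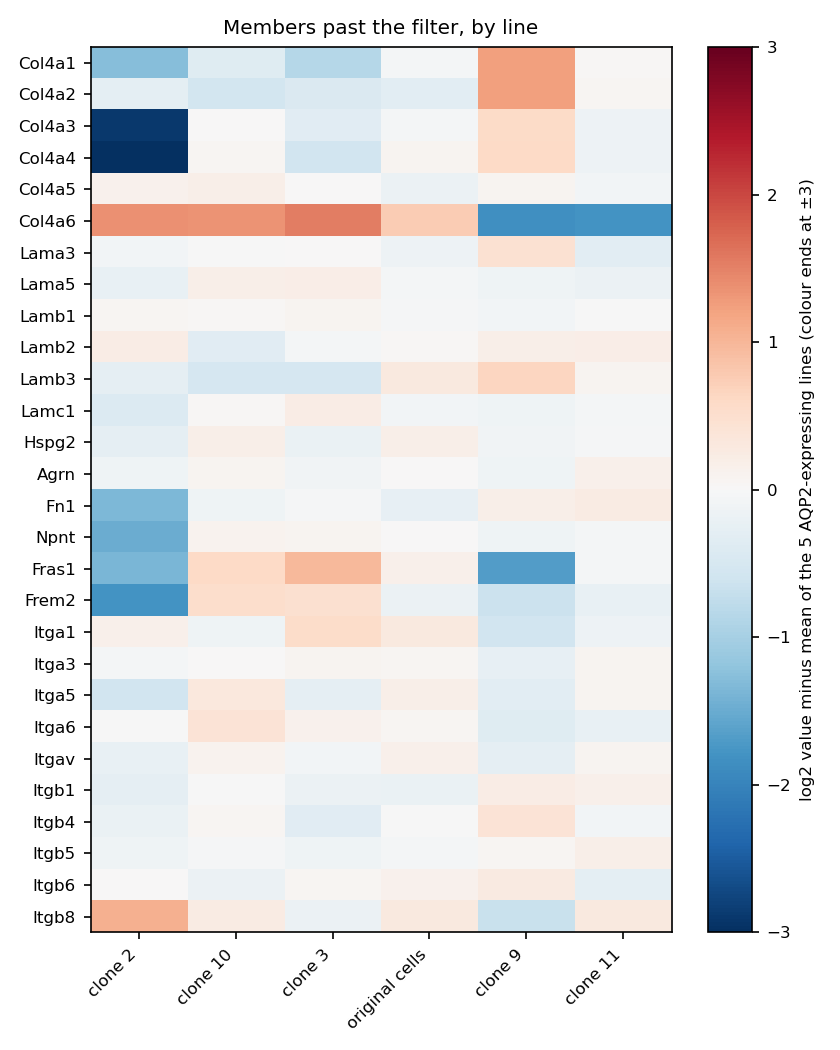
Log2 value of each tested gene minus its mean over the 5 AQP2-expressing lines, with clone 2 at the left and the expressing lines ordered by Aqp2. Blue is lower and red is higher, and the colour scale ends at ±3. Clone 2 is blue for Col4a3, Col4a4, Fn1, Npnt, Fras1 and Frem2, and clones 9 and 11 are blue for Col4a6.

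The series set out to find transcripts that go with Aqp2 among the lines. From low to high, the Aqp2 signal was 159.3 (clone 2), 1066.4 (clone 10), 1697.9 (clone 3), 3822.4 (original cells), 4683.4 (clone 9) and 6577.7 (clone 11). Over all 6 lines, 3 of the 28 genes rose with Aqp2 and none fell (limma slope, adjusted p under 0.05), where 1.76% of all probe sets were called, 1.02% rising and 0.742% falling. At an unadjusted p under 0.05 there were 7 of 28, against 19.9% of all probe sets. Slopes are in log2 units of the gene per log2 unit of Aqp2. They were 0.59 for Col4a4 (SE 0.111, limma adjusted p = 0.0391), 0.56 for Col4a3 (SE 0.116, adjusted p = 0.0491) and 0.28 for Fn1 (SE 0.0461, adjusted p = 0.0292). Npnt (0.25, limma adjusted p = 0.0882) and Col4a1 (0.35, adjusted p = 0.101) did not pass. Col4a3 and Col4a4 are partner chains of a shared locus, so they are not independent. This fit shares every array with the clone 2 comparison, and clone 2 is its lowest point in Aqp2. For Col4a3, the signal at that point was below the filter and below the offset. The calls for Col4a3 and Col4a4 were lost without any of clones 3, 9 and 11 or the original cells, with adjusted p from 0.0626 to 0.0981. That for Fn1 was lost without clone 11 (adjusted p = 0.0884).

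Within the 5 expressing lines, where Aqp2 ran from 1066.4 to 6577.7, no member had a slope past the test. The limma adjusted p lay between 0.22 and 0.961. At an unadjusted p under 0.05 there were 7 of 28 (25%), against 11.5% of all probe sets, and 0.0133% of all were called. The slopes of the 3 genes above were 0.09 for Col4a3, 0.13 for Col4a4 and 0.11 for Fn1, and that of Npnt was -0.08. The difference between these slopes and those over 6 lines was not tested.

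The 7 genes at an unadjusted p under 0.05 went both ways. Frem2 had the smallest unadjusted p, with a slope of -0.41 (SE 0.0902, unadjusted p = 0.00163, limma adjusted p = 0.22). It was highest in clones 10 and 3, which had the least Aqp2 of the expressing lines, and lowest in clone 9. In clone 2, with the lowest Aqp2 of all, Frem2 was lowest, so its slope over the 6 lines was 0.22. Col4a6 had a slope of -1.33 (SE 0.306, limma adjusted p = 0.228), being low in clones 9 and 11, the lines with the most Aqp2. Fras1 (-0.60), Itga6 (-0.26) and Lama5 (-0.16) also had negative slopes, and Lamb3 (0.38) and Lamb2 (0.19) positive ones, with limma adjusted p from 0.271 to 0.431.

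**Figure D4:**
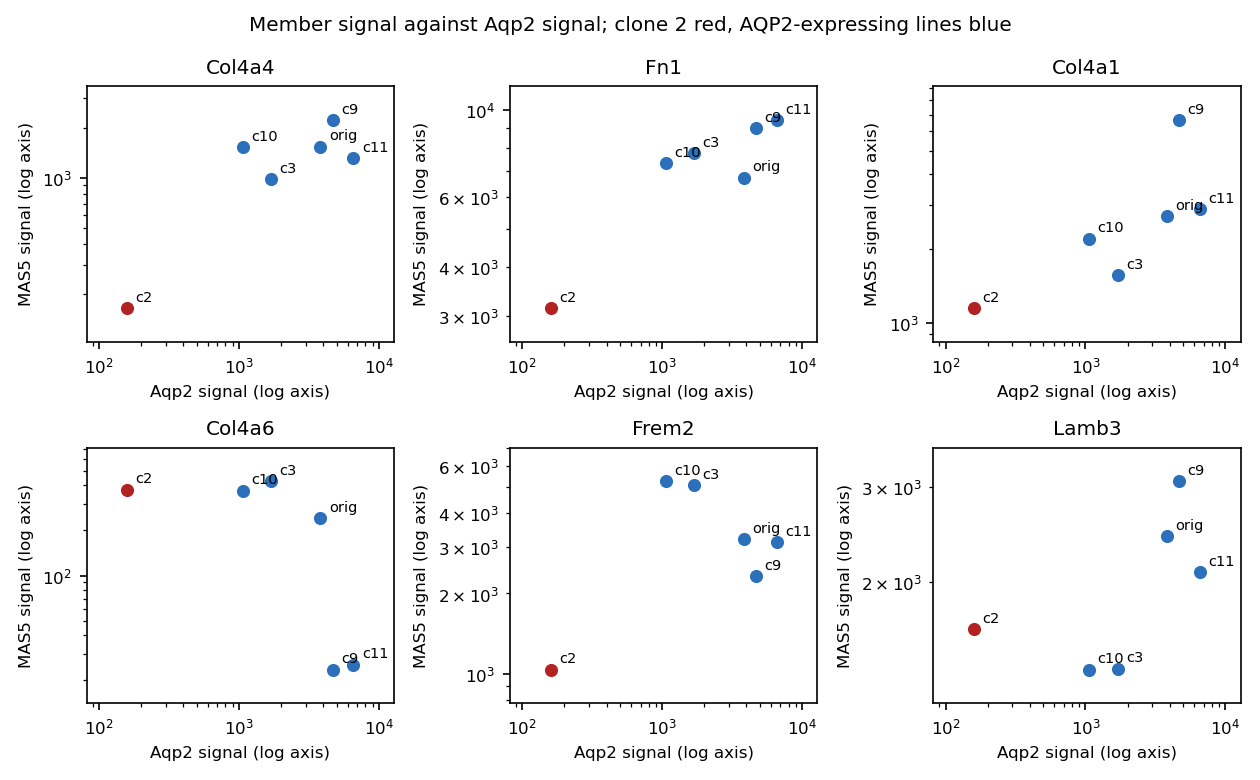
Signal of Col4a4, Fn1, Col4a1, Col4a6, Frem2 and Lamb3 against that of Aqp2, both on log axes, 1 point per line (c2 to c11 are the clones, orig the original cells). Clone 2 (red) lies below all other lines for Col4a4, Fn1, Col4a1 and Frem2, but not for Col4a6 and Lamb3. Col4a6 falls to 23.6 and 25.4 in clones 9 and 11.

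The original cells were also set against the 4 expressing clones. No member passed (limma, smallest adjusted p 1, and 0 of 28 at an unadjusted p under 0.05), and 0.00444% of all probe sets were called. The signals of the original cells lay inside the range of the 4 clones for Col4a3, Col4a4, Npnt and Frem2 and just below it for Fn1 (6738.1, against 7322 to 9454.3).

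A further 97 genes of matrix assembly, matrix turnover and integrin adhesion were followed, of which 85 were named on the arrays and 55 were tested. Over all probe sets, 0.817% were called higher in clone 2 and 1.67% lower. In the slope over the 6 lines, 1.02% of all were called rising and 0.742% falling. In clone 2, 1 was higher and 3 were lower. Among 13 other basement membrane genes, Tinagl1, a matrix protein related to cathepsins, had 1173.3 in clone 2 against 392 ± 27.5 in the expressing lines (SD, n = 5; log2 difference 1.54, limma adjusted p = 0.00746). Col18a1, whose product yields endostatin, had 2709.6 in clone 2 against 4910 ± 372 (log2 difference -0.85, adjusted p = 0.0209). The median of these 13 was 0.22.

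Among 18 adaptors and kinases of integrin adhesion, 2 fell in clone 2 and the median difference was -0.08. Dst, a cytoskeletal linker of hemidesmosomes, had 311 in clone 2 against 1440 ± 214 (log2 difference -2.13, limma adjusted p = 0.00381). Tln2, a talin that activates integrins, had 171.8 against 439 ± 83.5 (log2 difference -1.25, adjusted p = 0.0469), and this call was lost without clone 3, 10 or 11 or the original cells (adjusted p from 0.0543 to 0.101). Over the 6 lines, the kindlin Fermt2 (slope 0.26, limma adjusted p = 0.0454) and the adaptor Bcar1 (0.20, adjusted p = 0.0303) rose with Aqp2. Both calls were lost without clone 3 or 11 or the original cells (adjusted p from 0.0509 to 0.124).

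Collagen assembly and crosslinking genes had 0 of 12 past the test in clone 2, with 2 at an unadjusted p under 0.05 and a median of 0.07. The 2 with the highest mean signal, the chaperone and hydroxylase subunit P4hb and the catalytic subunit P4ha1, had 15394.3 and 2467.3 in clone 2 against 13800 ± 1330 and 2490 ± 470 in the expressing lines. Of 9 matrix proteases and inhibitors none passed in clone 2, 3 had an unadjusted p under 0.05, and the median was -0.27. The inhibitor Timp2 had 4090.7 in clone 2 against 5280 ± 635, and the protease Adamts1 had 4228.2 against 4640 ± 912. Plat, tissue plasminogen activator, fell with Aqp2 over the 6 lines (slope -0.45, limma adjusted p = 0.0208, and 0.0723 without clone 11), with 678.9 in clone 2 against 110.8 to 369.7. Of 3 other integrin ligands, Ccn1 had 5360.3 against 5400 ± 1510 and Ccn2 had 4555 against 4490 ± 1710, and none passed (1 at an unadjusted p under 0.05). No gene of these 5 lists passed in the slope over the expressing lines (12 of 55 at an unadjusted p under 0.05) or in the comparison of the original cells (2 of 55). Over all probe sets that unadjusted share was 20% in the clone 2 comparison, 11.5% in the slope over the expressing lines and 1.99% for the original cells.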

How the data were processed

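Signals were measured on 6 Affymetrix mouse arrays with biotin-labelled cRNA, per the labels' protocols. The deposited values were MAS5 signal intensities, which the authors computed in Expression Console 1.1 of Affymetrix, as the submitters' processing notes list it. Each array had a trimmed mean of 500 without the lowest and highest 2%, as computed from the values, so the arrays had been scaled alike. MAS5 subtracts mismatch signal, which makes low values noisy. The number of arrays limits the precision.

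Groups came from the labels. After leaving out 64 control probe sets, 34945 of 45037 had 1 gene in the platform annotation, 932 several and 9160 none named; symbols were updated by gene identifier to GRCm38.p6 (34741 matched). Values were taken as log2(signal + 18.85), the 25th percentile of all signals, which understates differences of low genes. Tests covered probe sets averaging over 85.46, over the whole array, with limma 3.58.1 in R 4.3.3 (lmFit, eBayes with a mean-variance trend, two-sided, Benjamini-Hochberg over all tested probe sets, adjusted p under 0.05). The clone 2 fit and the slope on log2 Aqp2 over 6 lines had 4 residual degrees of freedom, against 3 for the slope over 5 lines and the original-cell comparison. A lone array (clone 2, original cells) was taken to vary as the remaining lines do. The script was tested on simulated data.

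The members, the 5 further lists and the markers were chosen with earlier results of these data known. Genes named with a value in every line were the called members, the 2 of highest mean signal per family and their partner chains. Up to 4 called genes or the 2 of highest mean signal per further list were named with summary values. Lamc1, Lamb3, Itgb8 and others beyond this were chosen after their values were seen. Of the 35 members, 25 had a promoter window in the RefSeq table. Alternatives were another offset, filter, normalization, variance model, probe set or predictor, and leaving out each expressing line.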

Additional observations from a re-analysis of the deposited data

Results flagged for a closer look

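Among the 5 expressing lines, 3 of the 28 tested genes had 1 line whose gap to its nearest neighbour took up more than 0.71 of the whole range. Clone 9 was that line each time. Its Col4a1 signal was 6667, with 2893.1 next (gap over range 0.739), and its Col4a2 signal was 3073, with 1354.9 next (0.787). Its Itga3 signal was 3009.3, the lowest, with 3567.3 next (0.723). On both other Itga3 probe sets the original cells were lowest, with 1233.3 against 1316.3 in clone 9 and 473.9 against 475.5. Of all 22518 probe sets tested, 6.08% had such a line, and clone 9 was that line for 2.75%. Chance alone marks about 1 in 20 such groups, and Col4a1 and Col4a2 are partner chains of a shared locus, so they are not independent.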

How the results depend on the processing

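In clone 2, between 4 and 6 members were called under the 14 alternatives, against the 5 reported. Col4a3, Col4a4, Fn1 and Npnt kept their call wherever they were tested, with adjusted p at most 0.0294, 0.0254, 0.0464 and 0.0322; Col4a3 did not enter at the filter of the 75th percentile. Frem2 kept its call in 3 of 13 alternatives (adjusted p 0.0145 to 0.105). Leaving out each expressing line gave 4 to 6 members. Over all probe sets the clone 2 count ran from 154 to 943, against 560. In the slope over 6 lines, the 3 called members became 0 on dropping the filter, 0 on dropping the mean-variance trend, 0 with Aqp2 as a rank, and 0 to 4 when an expressing line was left out. The whole count there ran from 0 to 648, against 397. Leaving out 1 line put the Col4a2 difference between -0.42 and 0.02 and the Col4a3 slope within the expressing lines between -0.01 and 0.22, both changing sign without clone 9 and neither past the test there. No member was called in that slope or in the original cells under any of their 14 and 13 alternatives, and over all probe sets these gave 0 to 14 calls, against 3, and 0 to 2, against 1. Col18a1 lost its call without the trend (adjusted p = 0.0728) and on its next probe set (0.131). Tln2 kept its call in 3 of 13 alternatives, with log2 differences from -1.33 to -1.15, and lost it on its next probe set (-1.24). The cause of these changes was not tested. No paired analysis was possible because the labels give no replicate numbers shared between groups. Genes low in every line, such as the nidogens, cannot be compared, and absence of a transcript was not shown.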
